A study of Mus musculus with 6 samples.

Results

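A set of 9 genes of the FoxO branch of muscle wasting was followed through myoblast differentiation with and without 4-phenylbutyric acid (4-PBA): the transcription factors Foxo1, Foxo3 and Foxo4, the FoxO-responsive gene Depp1, the ubiquitin ligase genes Trim63, Fbxo32, Fbxo30 and Fbxo40, and the mitophagy receptor gene Bnip3. They were taken by symbol, and all 9 of them are among the 43074 genes of the count table. All 9 passed the filter on low counts. Depp1 had drawn attention by its lower count with 4-PBA than with DMSO, so in that comparison the values of the 9 genes are a description and no test is read from them.

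The cells were C2C12, an established mouse myoblast line of wild-type genotype that fuses into myotubes when serum is reduced. The day 0 group had no treatment and had grown in medium with fetal bovine serum. The other groups were kept for 4 days in differentiation medium with horse serum, either with DMSO, the solvent control, or with 1 mM 4-PBA, a chemical chaperone and histone deacetylase inhibitor. Each of the 3 groups had 2 RNA-seq libraries. The labels do not divide the 6 libraries into batches, so a difference between batches was not tested. The day 0 cells had neither the differentiation medium nor DMSO, so time, medium and solvent cannot be told apart in a comparison with day 0. All libraries came from this 1 line, and the labels do not say whether the libraries of a group came from separate cultures, so p-values measure the spread between these libraries, which may be technical.

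FoxO factors are forkhead transcription factors. Insulin and IGF signalling through Akt phosphorylates them and keeps them out of the nucleus, while fasting, disuse and glucocorticoids let them enter it. In muscle, nuclear FoxO factors are known to switch on ubiquitin ligases that mark myofibrillar and regulatory proteins for the proteasome, together with genes of autophagy. Trim63 (MuRF1) and Fbxo32 (atrogin-1) are the ligases most used as markers of atrophy.

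The libraries held 47908926 to 74697397 counts. Summed levels of 5 myotube markers (Myog, Ckm, Myh3, Acta1, Tnnt3) were 72.8 to 76.5 CPM (counts scaled to the size of each library) at day 0, 4483 to 4768 CPM with DMSO and 4440 to 4545 CPM with 4-PBA. The day 4 sums overlapped, but not every gene did. Myog and Myh3 overlapped, while Acta1, Ckm and Tnnt3 were lower in both 4-PBA libraries than in both DMSO libraries (log2 -0.09, -0.17 and -0.12). Of all tested genes 22.5% were lower in this way. The 5 myoblast markers (Myod1, Myf5, Des, Cdh15, Pax7) summed to 1315 to 1328, 2882 to 2925 and 2781 to 2790 CPM in the same order. Most of this sum was Des, at 877 and 885 CPM at day 0 and 2226 and 2198 in DMSO cells, and the 5 did not move together: Myf5 fell with DMSO (log2 -1.14, SE 0.0572) and Myod1 rose by 0.22 (SE 0.0380). Markers of other cell types were low in all 6 libraries: the sums lay at 0.0644 to 0.165 CPM for 4 adipocyte genes, 0.243 to 0.456 for 4 osteoblast genes and 0.270 to 0.883 for 4 endothelial genes. Of the leukocyte genes, Cd68 had 83 to 373 counts a library, Csf1r 5 to 20 and Ptprc 0 to 3. Cd68 was at 5.47 and 5.31 CPM at day 0 and fell to 2.22 and 1.58 in DMSO cells (log2 -1.51, SE 0.205, edgeR adjusted p = 4.51e-07). Csf1r, Kdr and Pecam1, at most 0.453 CPM in any library, were also called lower with DMSO; Csf1r lost its call without day 0 replicate 1 or DMSO replicate 1, and Pecam1 without any library but DMSO replicate 1. None of these markers was at 0 in every library. Their part in the results was not tested. In bulk RNA, a change in the number of cells of a type and a change in RNA per cell cannot be told apart.

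The promoters of the 3 genes that start from almost no counts at day 0 (Trim63, Depp1 and Fbxo40) are shown because these genes had the largest rises of the 9. RefSeq promoters on GRCm38.p6 were at hand for 7 of the 9 genes. Those of Foxo4 and Fbxo32 were missing and were not searched. In the sequences, capitals mark the FoxO core GTAAACA, read on either strand, and the myogenic E-box CAGCTG. Sequence inside an annotated exon was left out of what is printed here, but not out of the search.
Trim63, chr4:134314870-134315119, plus strand: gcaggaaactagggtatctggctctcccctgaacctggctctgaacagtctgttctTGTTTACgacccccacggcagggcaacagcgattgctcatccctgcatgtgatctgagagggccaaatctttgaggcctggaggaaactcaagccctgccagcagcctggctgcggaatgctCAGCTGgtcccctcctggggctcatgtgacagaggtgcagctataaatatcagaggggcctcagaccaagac
Depp1, chr6:116650434-116650608, plus strand: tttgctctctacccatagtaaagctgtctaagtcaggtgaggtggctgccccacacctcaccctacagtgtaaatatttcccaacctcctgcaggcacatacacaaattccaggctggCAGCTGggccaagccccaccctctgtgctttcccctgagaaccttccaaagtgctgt
Fbxo40, chr16:36990468-36990717, minus strand: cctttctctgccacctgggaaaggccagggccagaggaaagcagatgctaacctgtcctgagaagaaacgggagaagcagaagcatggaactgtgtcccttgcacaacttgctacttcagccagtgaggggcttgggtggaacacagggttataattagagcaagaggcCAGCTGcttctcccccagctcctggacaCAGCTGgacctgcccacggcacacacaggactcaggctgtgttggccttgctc

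A total of 5 motifs were searched on both strands in the full 250 bases before each RefSeq start, annotated exon bases included, for every one of these 7 genes, the E-box and the hypoxia core after the counts had been seen. Among these 7 genes the FoxO core GTAAACA was in the window of Trim63 only, on the opposite strand at 194 to 188 bases before the start. Of 32851 mouse promoters 3.17% hold it. The shorter TAAACA, which lies within the first motif, matched the same place in Trim63 and no other of the 7 genes, against 12% of promoters. The form CAAAACA was in none of the 7 genes' windows, against 5.56% of promoters. CAGCTG was found in Trim63 (72 bases before the start), in Depp1 (132 bases) and in Fbxo40 (81 and 53 bases, and 89 bases before a second start), against 13% of promoters. ACGTG, the hypoxia core, was found only in Bnip3 among the 7 genes, on both strands at overlapping places 108 and 107 bases before the start, against 16.6% of promoters. None of the 5 motifs was in the windows of Foxo1, Foxo3 or Fbxo30. For Fbxo30, however, 0 of the 250 bases lay before the annotated exons of the gene, so no sequence upstream of them was searched. The bases before the annotated exons were 175 for Depp1, 190 for Foxo3, 237 for Bnip3 and 249 for Foxo1. Only these exact letters were searched, so similar letters, such as gtaaata in the printed Depp1 sequence, were not counted or marked. A match describes letters in this window and shows no binding.

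The first comparison asked how the genes changed over 4 days of differentiation without the drug. Of the 9 genes, 7 rose, Fbxo30 fell and Bnip3 was not called. A gene was called at an adjusted p under 0.05 in edgeR's quasi-likelihood test, with Benjamini-Hochberg adjustment over 17433 tested genes. By this rule 8 of the 9 were called, 7 higher and 1 lower, and 66.3% of all tested genes were called, 33.8% higher and 32.6% lower. The libraries of the 2 groups did not overlap for 8 of the 9, 7 higher and 1 lower, against 81.9% of all tested genes, 42% higher and 39.9% lower. The median log2 fold change was 0.94 over the 9 genes and 0.02 over all genes tested.

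**Figure D1:**
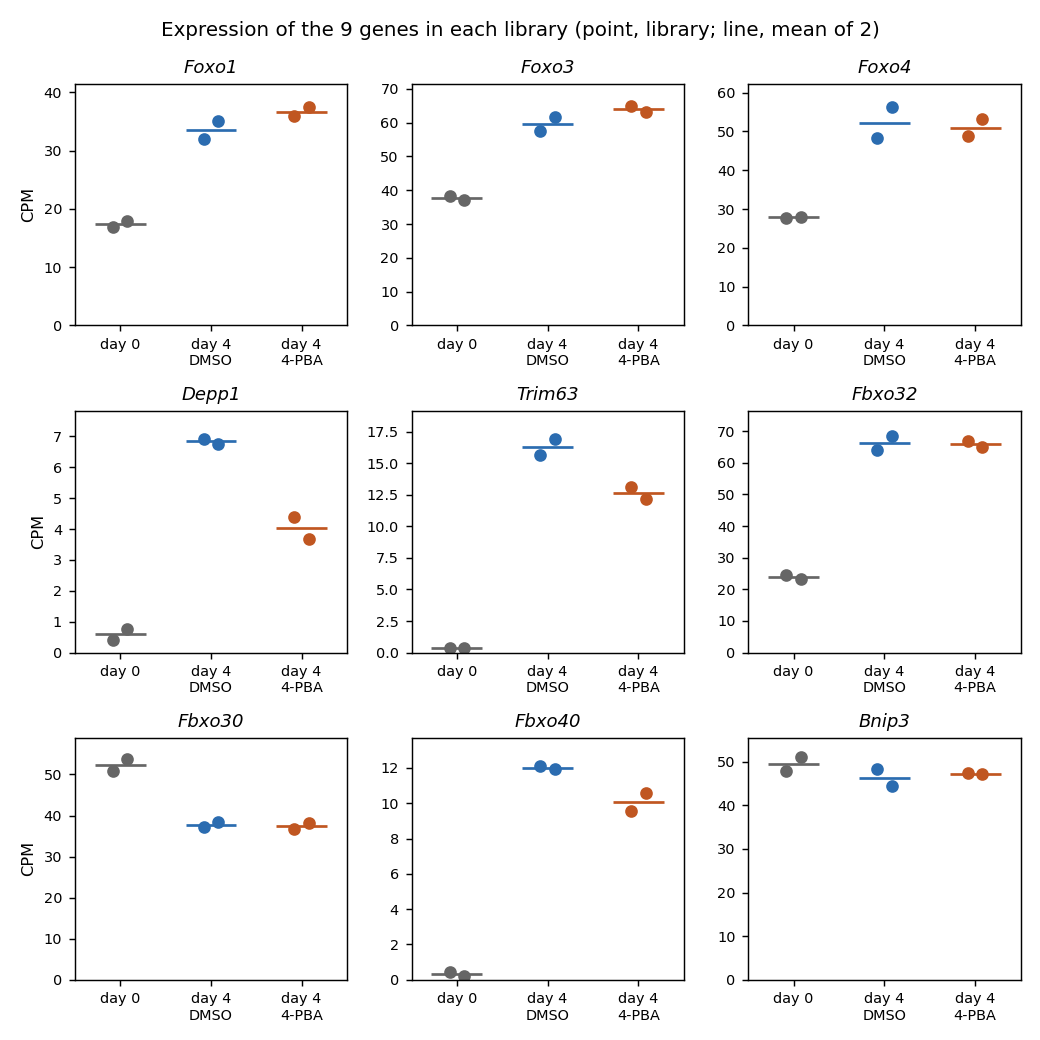
Expression of the 9 genes in CPM (vertical axes, linear from 0, a scale for each gene) in the 2 libraries of each group; points are libraries and lines are group means. Trim63, Fbxo40 and Depp1 are under 0.8 CPM at day 0 and stand above 3.6 CPM in every day 4 library, while Bnip3 stays between 44.5 and 51.0 CPM.

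Among the factors, Foxo1, which is also known for control of metabolic genes, had 17.0 and 17.9 CPM at day 0, 32.0 and 35.0 in DMSO cells and 36.0 and 37.4 in 4-PBA cells. Both DMSO libraries were above both day 0 libraries. The rise was 1.92-fold (log2 fold change 0.94, SE 0.0642, edgeR adjusted p = 2.91e-15).

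Foxo3, the factor most often tied to atrophy and autophagy genes, was at 38.3 and 37.0 CPM at day 0, 57.4 and 61.8 in DMSO cells and 64.8 and 63.3 in 4-PBA cells. Day 0 libraries were lowest and did not overlap with either day 4 group. With DMSO it rose 1.58-fold (log2 0.66, SE 0.0490, edgeR adjusted p = 2.71e-14).

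Foxo4, an X-linked member of the family, had 27.8 and 27.96 CPM at day 0, 48.2 and 56.3 in DMSO cells and 48.9 and 53.2 in 4-PBA cells. The day 4 groups overlapped and both were above day 0. Its rise with DMSO was 1.88-fold (log2 0.91, SE 0.0640, edgeR adjusted p = 1.56e-11). The log2 values of the 3 factors ran from 0.66 to 0.94, and no test compared them with each other.

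Foxo6, the remaining member of the family and the one whose product shuttles little out of the nucleus, was not among the 9 genes. It had 6.38 and 6.61 CPM at day 0, 36.4 and 38.8 in DMSO cells and 38.6 and 39.6 in 4-PBA cells. Its rise with DMSO was 5.77-fold (log2 2.53, SE 0.0715, edgeR adjusted p = 2.51e-26), and the day 4 groups overlapped.

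Depp1 encodes a small protein induced by FoxO3 and by progesterone, and is known for effects on autophagy and reactive oxygen. It was the member with the fewest counts at day 4. It had 20 and 54 counts in the untreated day 0 cells, 437 and 502 in DMSO cells, and 273 and 228 in 4-PBA cells. In CPM these are 0.412 and 0.769, then 6.93 and 6.77, then 4.40 and 3.67. The 3 groups did not overlap: day 0 was lowest, DMSO highest and 4-PBA between them. With DMSO Depp1 rose 11.1-fold (log2 3.47, SE 0.201, edgeR adjusted p = 4.96e-17). The size of this rise depended on the day 0 libraries, with a log2 value of 3.15 without day 0 replicate 1 and 4.05 without day 0 replicate 2.

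Trim63 encodes MuRF1, a RING-type ligase of the sarcomere M-band that marks myosin and other thick-filament proteins for degradation. It had 16 and 28 counts in day 0 cells, 987 and 1254 in DMSO cells, and 814 and 754 in 4-PBA cells, or 0.329 and 0.399, then 15.6 and 16.9, then 13.1 and 12.1 CPM. Every group was separate from the others, in the same order as for Depp1. It had the largest rise of the 9 genes with DMSO, 43.8-fold (log2 5.45, SE 0.156, edgeR adjusted p = 3.21e-26).

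Fbxo40 is a muscle F-box gene whose product targets Irs1, the insulin receptor substrate. It had 21 and 14 counts at day 0, 763 and 885 in DMSO cells and 595 and 658 in 4-PBA cells, or 0.432 and 0.199, then 12.1 and 11.9, then 9.58 and 10.6 CPM. The groups did not overlap, with day 0 lowest and DMSO highest. The rise with DMSO was 40.3-fold (log2 5.33, SE 0.188, edgeR adjusted p = 1.69e-23), and 4.79 to 5.89 on the log2 scale when day 0 replicate 2 or day 0 replicate 1 was left out.

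Fbxo32 (atrogin-1), the F-box ligase whose substrates include MyoD and eIF3f, was already expressed at day 0, with 24.4 and 23.2 CPM. It reached 64.2 and 68.5 CPM in DMSO cells and 66.8 and 65.1 in 4-PBA cells. Both day 4 groups were above day 0 and overlapped with each other. Fbxo32 rose 2.80-fold with DMSO (log2 1.48, SE 0.0513, edgeR adjusted p = 9.72e-24). Trim63 and Fbxo32 are usually read together; their log2 fold changes were 5.45 (SE 0.156) and 1.48 (SE 0.0513).

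Fbxo30 (MUSA1), an F-box ligase induced by denervation and held down by BMP signalling, moved the other way. It had 50.7 and 53.7 CPM at day 0, 37.3 and 38.3 in DMSO cells and 36.7 and 38.2 in 4-PBA cells. Day 0 was above both day 4 groups. It was the only one of the 9 genes that fell with DMSO, with a log2 fold change of -0.47 (SE 0.0508, edgeR adjusted p = 4.53e-10).

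Bnip3, an outer-membrane receptor that recruits mitochondria to autophagosomes and is known as a target of both FoxO3 and hypoxia-inducible factor, showed the smallest difference. It had 47.9 and 51.0 CPM at day 0, 48.3 and 44.5 in DMSO cells and 47.4 and 47.2 in 4-PBA cells. The day 0 and DMSO libraries overlapped. The log2 fold change was -0.10 (SE 0.0508, edgeR adjusted p = 0.0951), and the gene was not called. The call depended on the setting: it was made without DMSO replicate 1 (log2 -0.15, edgeR adjusted p = 0.0119) and with scaling to library size alone (log2 -0.12, edgeR adjusted p = 0.0293), and over all 14 alternatives the adjusted p ranged up to 0.585. Its paralogue Bnip3l, the mitophagy receptor of red cell maturation, fell from 148 and 152 CPM to 126 and 128 CPM (log2 -0.24, SE 0.0351, edgeR adjusted p = 1.75e-07).

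Levels can be compared between genes only per length. Dividing CPM by the kilobases of annotated exon gave the same gene at the top in all 3 groups, Bnip3, with means of 21.8 in day 0 cells, 20.5 in DMSO cells and 20.9 in 4-PBA cells. At day 0 it was followed by Fbxo30 (10.0), Foxo4 (7.997), Foxo3 (4.97), Fbxo32 (3.41), Foxo1 (2.01), Depp1 (0.435), Trim63 (0.128) and Fbxo40 (0.0572). In the DMSO group the order of length-scaled levels was Foxo4 (15.0), Fbxo32 (9.51), Foxo3 (7.87), Fbxo30 (7.27), Trim63 (5.73), Depp1 (5.04), Foxo1 (3.87) and Fbxo40 (2.18) after Bnip3. The 2 libraries of neighbouring genes did not overlap at any step of these 2 orders.

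With 4-PBA the length-scaled order was Bnip3, Foxo4 (14.6), Fbxo32 (9.45), Foxo3 (8.46), Fbxo30 (7.21), Trim63 (4.44), Foxo1 (4.23), Depp1 (2.97) and Fbxo40 (1.83). Here Trim63 (4.27 to 4.61) and Foxo1 (4.15 to 4.31) overlapped, and the other neighbours did not. Depp1 stood above Foxo1 with DMSO and below it with 4-PBA. Lengths from the longest transcript in place of all exons exchanged Trim63 and Fbxo30 in the DMSO group and left the other places as they were. Foxo6 lay at 2.48, 14.4 and 15.0 CPM per kilobase in the 3 groups, and at day 4 its libraries overlapped those of Foxo4 in both groups.

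**Figure D2:**
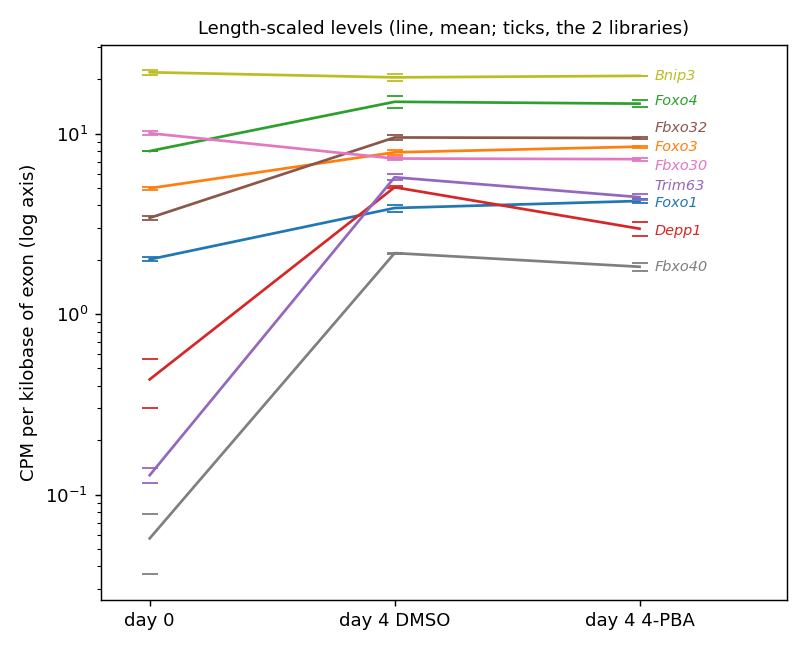
Length-scaled level (CPM per kilobase of annotated exon, log axis) of each of the 9 genes in the 3 groups; lines join group means and ticks are the 2 libraries. Bnip3 stays on top at 20.5 to 21.8, and Trim63 and Fbxo40 climb from 0.128 and 0.0572 at day 0 to 5.73 and 2.18 with DMSO.

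Exons of 3 of the 9 genes share bases with an annotated gene on the opposite strand: Foxo1 with Gm20402 over 674 bases, Fbxo32 with Gm15943 over 186 bases and Bnip3 with Gm45507 over 504 bases. The library kit keeps strand, but whether the counting used it is not stated, so reads of the partners may not be separated. The partners had 0 to 5, 12 to 74 and 0 to 12 counts in the 6 libraries. These are small beside the 824 to 5082 counts of the 3 genes, but they do not show how reads in the shared bases were assigned.

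Setting 4-PBA beside DMSO after 4 days asks what the drug added to differentiation. Depp1 was the most different of the 9 genes, lower in both 4-PBA libraries, at a mean of 4.03 CPM (SD 0.513, n = 2) against 6.85 (SD 0.112, n = 2). That is 0.590 of the DMSO level (log2 -0.76, SE 0.153). Trim63 was at 0.775 of the DMSO level (log2 -0.37, SE 0.0902), with 12.6 CPM (SD 0.685, n = 2) against 16.3 (SD 0.893, n = 2). Fbxo40 was at 0.840 (log2 -0.25, SE 0.109), with 10.1 CPM (SD 0.716, n = 2) against 12.01 (SD 0.114, n = 2). Each of these 3 genes had lower values in both 4-PBA libraries than in both DMSO libraries, as had 22.5% of all tested genes. Differentiation markers that were lower in the same way were Acta1 (log2 -0.09, SE 0.0282, edgeR adjusted p = 0.0450), Ckm (-0.17, SE 0.152, 0.719), Tnnt3 (-0.12, SE 0.0498, 0.245) and Des (-0.11, SE 0.0258, 0.00881), while Cdh15 was higher (0.11, SE 0.0288, 0.0171). The call of Acta1 was lost without any library but DMSO replicate 1, that of Des without either 4-PBA replicate and that of Cdh15 without DMSO replicate 2 or either 4-PBA replicate, and Tnnt3 was called without DMSO replicate 1 and Ckm without either day 0 replicate. Their part in the lower values of the 3 genes was not tested.

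Foxo1 and Foxo3 had higher values in both 4-PBA libraries than in both DMSO libraries, by 0.13 (SE 0.0601) and 0.10 (SE 0.0472) on the log2 scale. Of all tested genes 23% were higher without overlap. The other 4 genes overlapped between the groups. Their log2 differences were -0.04 for Foxo4 (SE 0.0608), -0.01 for Fbxo32 (SE 0.0471), -0.01 for Fbxo30 (SE 0.0516) and 0.03 for Bnip3 (SE 0.0508). Of the classical pair, Trim63 had both 4-PBA libraries below the DMSO range and Fbxo32 had both inside it.

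In this comparison 2 of the 9 genes were called by the edgeR rule, Depp1 and Trim63, both lower, where 4.9% of all tested genes were called, 2.13% higher and 2.78% lower. The libraries did not overlap for 5 of the 9 genes, 2 higher and 3 lower, where 45.5% of all tested genes did not, 23% higher and 22.5% lower. Since Depp1 was picked from this contrast, nothing is read from these counts. The number of members called was 1 (Depp1) without DMSO replicate 2 and 0 without 4-PBA replicate 2. Over all genes, 855 were called, and 341 and 295 without 4-PBA replicate 1 or 4-PBA replicate 2. Leaving out each library in turn put Depp1 between -0.90 and -0.64, Trim63 between -0.42 and -0.31 and Fbxo40 between -0.32 and -0.18 on the log2 scale. The median over the 9 genes was -0.01, and over all genes 0.00205.

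**Figure D3:**
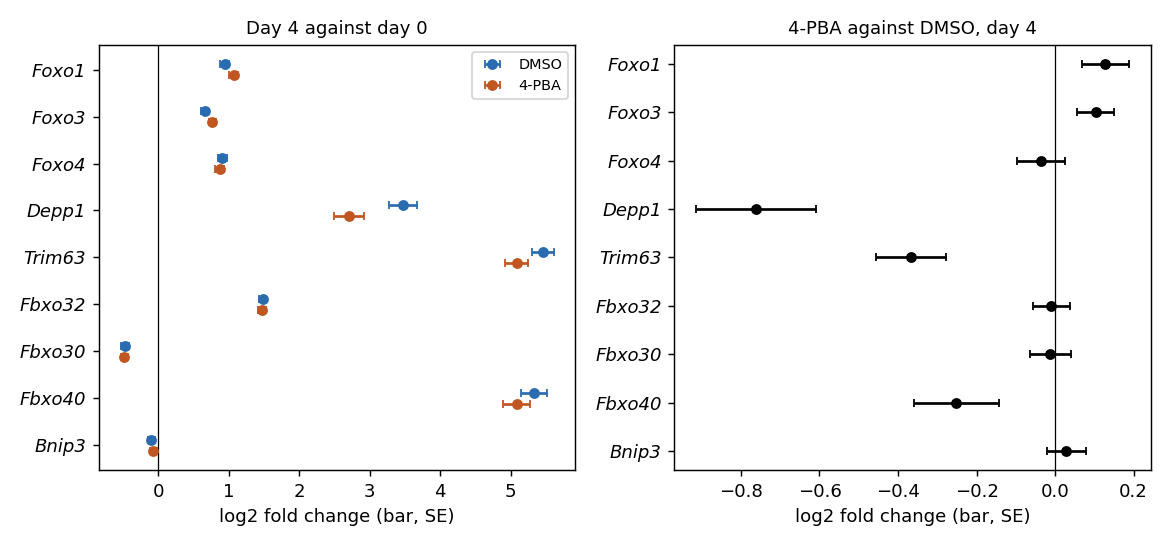
Log2 fold change of each of the 9 genes (points) with its standard error (bars), on the left for each day 4 group against day 0 and on the right for 4-PBA against DMSO, on a narrower axis. On the right Depp1 (-0.76), Trim63 (-0.37) and Fbxo40 (-0.25) lie below 0 and Foxo1 (0.13) and Foxo3 (0.10) above it. Foxo4, Fbxo32, Fbxo30 and Bnip3 lie closer to 0, and no test is read from these values.

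Cells that differentiated with 4-PBA, set against day 0, gave values to be read beside those of DMSO, since both comparisons use the same day 0 libraries. Of the 9 genes, 8 were called, 7 higher and 1 lower, against 65.6% of all tested genes, 33.2% higher and 32.4% lower. The libraries did not overlap for all 9, 7 higher and 2 lower, against 81.8% of all tested genes, 41.7% higher and 40.1% lower. The rises were 2.10-fold for Foxo1 (log2 1.07, SE 0.0642), 1.70-fold for Foxo3 (0.77, SE 0.0491) and 1.83-fold for Foxo4 (0.87, SE 0.0643). Depp1 rose 6.53-fold with 4-PBA (log2 2.71, SE 0.211, edgeR adjusted p = 1.57e-13), where with DMSO it rose 11.1-fold.

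Trim63 rose 34.0-fold with 4-PBA (log2 5.09, SE 0.160), Fbxo40 33.9-fold (5.08, SE 0.192) and Fbxo32 2.78-fold (1.47, SE 0.0515), beside 43.8, 40.3 and 2.80-fold with DMSO. Fbxo30 fell by 0.48 on the log2 scale (SE 0.0512, edgeR adjusted p = 3.02e-10). Bnip3 was not called (log2 -0.07, SE 0.0510, edgeR adjusted p = 0.253), although its 4-PBA libraries lay just under both day 0 libraries. The largest adjusted p among the 8 called genes was that of Foxo4 (3.75e-11, edgeR). The median log2 fold change of the 9 genes was 1.07, against 0.02 over all genes.

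A further 7 lists of related genes, none holding a member, were counted in the same fits. They were chosen with earlier results of these data known, so their counts are a description and no enrichment was tested. A list of 37 genes held Foxo6 and genes that act on FoxO factors (insulin and IGF receptors, PI3K, Akt, 14-3-3 proteins, acetylases and ligases). Of the 37, 30 (81.1%) were called with DMSO against day 0. In this comparison 66.3% of all tested genes were called, 33.8% higher and 32.6% lower. Of the 30, 16 were higher and 14 lower, and the median log2 fold change of the list was 0.03. The group thus held changes in both directions. After Foxo6 the smallest adjusted p values were those of Skp2, the F-box ligase that targets FoxO1, which fell from 55.6 and 56.2 CPM to 21.0 and 19.2 (log2 -1.48, SE 0.0583), and of Ywhaz, a 14-3-3 protein that holds phosphorylated FoxO in the cytoplasm, which fell by 0.66 (SE 0.0286). The kinase genes went apart, with Akt2 higher (log2 0.79, SE 0.0348, edgeR adjusted p = 1.14e-20) and Akt1 lower (-0.12, SE 0.0293, edgeR adjusted p = 4.27e-04). Pik3ip1, an inhibitor of PI3K, rose from 3.60 and 3.59 CPM to 10.7 and 10.8 (log2 1.58, SE 0.108).

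With 4-PBA against DMSO, 3 of the 37 (8.11%) were called, against 4.9% of all tested genes. Mdm2, a ligase of p53 and FoxO, was lower (log2 -0.18, SE 0.0342, edgeR adjusted p = 7.47e-04), as was Irs1, the insulin receptor substrate (-0.16, SE 0.0327, edgeR adjusted p = 0.00141), with 142 and 141 CPM against 158 and 159. Skp2 was higher (0.21, SE 0.0610, edgeR adjusted p = 0.0375), and lost its call without any 1 of 5 libraries (DMSO replicate 1 was the exception). Irs1 lost its call without 4-PBA replicate 2, where the list's count fell to 1. Akt1 (0.00275, SE 0.0293) and Akt2 (-0.06, SE 0.0341) were not called. The median of the list was -0.02.

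Another 36 genes known as FoxO targets showed 31 calls (86.1%) with DMSO against day 0, 21 higher and 10 lower. Of all tested genes 66.3% were called, 33.8% higher and 32.6% lower. The list median was 0.52, against 0.02 over all genes. Ccnd1 (cyclin D1, repressed by FoxO factors in other cells) fell from 601 and 597 CPM to 141 and 132 (log2 -2.13, SE 0.0330). Fst (follistatin, which binds myostatin) rose by 2.91 (SE 0.0668) and Trp53inp2, an autophagy protein of muscle, by 1.95 (SE 0.0333). Sesn1, a sestrin that restrains mTORC1, rose by 0.59 (SE 0.0689) and Ulk1, the autophagy-starting kinase, by 0.61 (SE 0.0420). Cdkn1b (p27) fell by 0.14 (SE 0.0430, edgeR adjusted p = 0.00361), a call lost without day 0 replicate 2. Klf15 had at most 0.290 CPM in any library and was not called (log2 1.03, SE 0.694, edgeR adjusted p = 0.195).

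With 4-PBA 8 of these 36 targets (22.2%) were called against DMSO, where 4.9% of all tested genes were, 3 higher (Fst, Ccng2, Sesn3) and 5 lower (Ccnd1, Cdkn1a, Bcl6, Sesn2, Ddit4), with a median of 0.02. The count was 3 when either 4-PBA replicate was left out. Ccng2, Sesn3, Bcl6 and Sesn2 are named for completeness after their values were seen. Ccnd1 had the smallest adjusted p, with 111 and 112 CPM against 141 and 132 (log2 -0.29, SE 0.0328, edgeR adjusted p = 4.38e-07). Fst was at 67.9 and 70.4 CPM against 58.1 and 55.7 (log2 0.28, SE 0.0529, edgeR adjusted p = 8.50e-04), a call lost without 4-PBA replicate 2. Cdkn1a, which encodes the cell cycle inhibitor p21, was lower (log2 -0.16, SE 0.0359, edgeR adjusted p = 0.00962), lost its call without 4-PBA replicate 1 and was at -0.09 without DMSO replicate 2. The 8 calls thus ran in both directions.

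With DMSO against day 0, 66.3% of all tested genes were called, 33.8% higher and 32.6% lower. The list of 38 ubiquitin system genes of muscle had 31 calls (81.6%) in this comparison, 24 higher and 7 lower, with a median of 0.16. Its smallest adjusted p values were those of Trim72 (MG53, membrane repair; log2 6.14, SE 0.0680) and of Klhl40 (5.52, SE 0.120) and Klhl41 (5.49, SE 0.0693), the cullin-3 adaptors that stabilise nebulin. Of the relatives of Trim63, Trim55 (MuRF2) rose from 47.9 and 45.8 CPM to 113 and 111 (log2 1.26, SE 0.0402) and Trim54 (MuRF3) from 21.5 and 19.6 to 35.8 and 40.5 (log2 0.90, SE 0.0660). A pair of F-box genes tied to atrophy, Fbxo21 (-0.05, SE 0.0516, edgeR adjusted p = 0.414) and Fbxo31 (0.02, SE 0.0725, edgeR adjusted p = 0.852), were not called.

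With 4-PBA, 4 of the 38 (10.5%) were called against DMSO, all lower, where 2.78% of all tested genes were called lower, with a list median of -0.00897. They were Klhl41 (log2 -0.23, SE 0.0455, edgeR adjusted p = 0.00311), Cblb (-0.25, SE 0.0551, edgeR adjusted p = 0.00373), Trim72 (-0.17, SE 0.0413, edgeR adjusted p = 0.0128) and Trim54 (-0.22, SE 0.0631, edgeR adjusted p = 0.0346). Cblb encodes a ligase linked to disuse atrophy and had 36.3 and 38.9 CPM against 46.6 and 43.0. All 4 calls were lost without 4-PBA replicate 1, and some of them without 4-PBA replicate 2. Without DMSO replicate 2 Klhl41 was at -0.14 and Trim54 at -0.13, and Trim54 lost its call. In that setting other genes of the list, named after their values were seen, gained a call in both directions. Asb2 and Ubb were higher with 4-PBA, and Mul1 and Ubr4 were lower. Trim55 was at 118 and 116 CPM against 113 and 111 and was not called (log2 0.07, SE 0.0379). The log2 values of the 3 MuRF genes were -0.37 for Trim63, -0.22 for Trim54 and 0.07 for Trim55.

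Proteasome subunit genes mostly fell. Of 31, 28 were called lower and 2 higher with DMSO against day 0, with a median log2 fold change of -0.32. Of all tested genes 32.6% were called lower and 33.8% higher. Psma1 and Psma7, subunits of the catalytic core particle, fell by 0.75 (SE 0.0383) and 0.63 (SE 0.0334), and Psmd2, of the regulatory particle, fell by 0.41 (SE 0.0293). The 2 that rose, named after their values were seen, were Psmc3 (log2 0.22, SE 0.0302) and Psmd8 (0.08, SE 0.0321), whose call was lost without day 0 replicate 1 or DMSO replicate 2. None of the 31 was called with 4-PBA against DMSO in edgeR, DESeq2 or limma-voom, 2 had an unadjusted p under 0.05 in edgeR, and the median was -0.01. Without DMSO replicate 1, 1 gene was called.

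Autophagy and mitophagy genes mostly rose: of 37, 24 were called higher and 7 lower with DMSO against day 0, with a median of 0.25. Of all tested genes 33.8% were called higher and 32.6% lower. Map1lc3a, an LC3 gene, went from 35.8 and 35.7 CPM to 172 and 179 (log2 2.29, SE 0.0386). Pink1, the kinase that flags damaged mitochondria, rose by 1.43 (SE 0.0464) and Wipi1, a phosphoinositide reader of early autophagosomes, by 0.83 (SE 0.0348). Bnip3 had a log2 value of -0.10 in the same comparison. None of the 37 was called with 4-PBA against DMSO in edgeR, DESeq2 or limma-voom, 3 had an unadjusted p under 0.05 in edgeR, and the median was -0.00994.

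**Figure D4:**
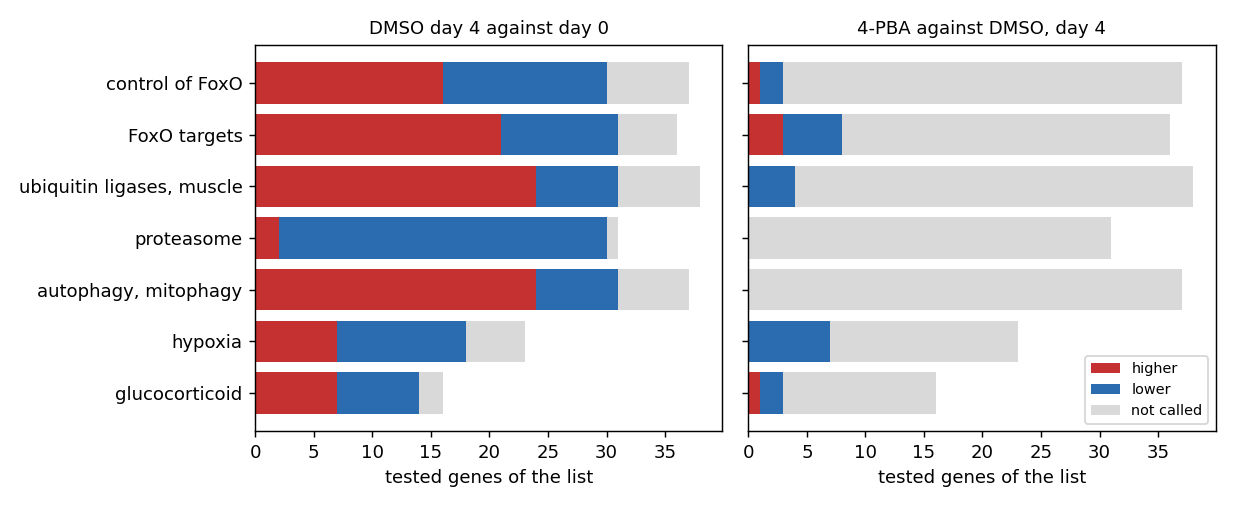
Number of tested genes (horizontal axis) in each of 7 lists that were called higher, lower or not called at an adjusted p under 0.05, on the left for DMSO at day 4 against day 0 and on the right for 4-PBA against DMSO. On the left 28 of 31 proteasome genes are lower, and on the right the calls run from 0 (proteasome, autophagy) to 8 (FoxO targets).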

How the data were processed

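Gene counts of 6 C2C12 RNA-seq libraries were analysed as deposited: whole-number counts per gene, not normalized by the authors, one column a library (per the file headers). Genome build GRCm39 is named in the submitters' processing notes; aligner, counter, annotation and counting strand are not given in the sources used here. Libraries were made from total RNA with a directional kit, per the labels' protocols. Groups come from the labels.

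Genes were filtered by filterByExpr, scaled by TMM and tested with edgeR 4.0.16 (quasi-likelihood, robust, one mean per group over all 6 libraries, R 4.3.3), with Benjamini-Hochberg adjustment over 17433 genes and a threshold of 0.05; 13014 of 43074 genes had no count. CPM uses TMM-scaled library sizes. The standard error is the log2 fold change divided by the square root of F. The biological coefficient of variation was 3.74%, on 3 residual degrees of freedom with a median prior of 30.4. Replicates of a group differed by more than sampling noise (chi-square per degree of freedom 3.77 to 6.64), so none was counted as a duplicate. The procedure was tested on simulated data in which genes changed only in the 4-PBA group. It was read for 4-PBA against DMSO, and the change from day 0 was not simulated. Alternatives used DESeq2 1.42.0 and limma 3.58.1.

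Members and lists were chosen with earlier results of these data known. Named from each list were up to 3 called genes with the smallest adjusted p, libraries that do not overlap and a higher group of 5 CPM or more, plus a set of 13 genes whatever their values; genes named outside this rule are marked. Promoters are from RefSeq (GRCm38.p6), and exon lengths and overlaps from GENCODE M21 (GRCm38), used without coordinates of the counting. A further leukocyte marker is not reported here.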

Additional observations from a re-analysis of the deposited data

How the results depend on the processing

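Each member's log2 fold change was recomputed under 14 alternatives a comparison (15 for 4-PBA against day 0), and 380 of 387 values kept their sign; the 7 exceptions were 4-PBA against DMSO values of Foxo4, Fbxo32, Fbxo30 and Bnip3, none of them called. Against day 0 the count of members called was 8 under every alternative for 4-PBA. For DMSO it was 8 or 9, with Bnip3 added with library size alone (log2 -0.12) and without DMSO replicate 1 (log2 -0.15). For 4-PBA against DMSO, an adjusted p under 0.01 left 424 genes and 1 member (Depp1), and DESeq2 called 682 genes. Depp1 was picked from this contrast, so nothing is read from the members called in it. Leaving out each library gave 295 to 1194 genes and 0 to 2 members. The cause was not tested. Without 4-PBA replicate 1 Depp1 was at -0.90, and without 4-PBA replicate 2 Fbxo40 was at -0.32. List counts moved by over 1.5 times in 17 of 105 alternatives for 4-PBA against DMSO and in 0 of 217 against day 0; the glucocorticoid list went from 3 to 7 with no filter beyond 1 count. Other scalings moved the median of all genes by at most 0.0278 in size.

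Replicate numbers did not pair the libraries: deviations from group means correlated at 0.0478 (day 0 and DMSO), -0.106 (day 0 and 4-PBA) and -0.0712 (DMSO and 4-PBA) over 10681 genes. With a replicate block 11403, 768 and 11309 genes were called for DMSO against day 0, 4-PBA against DMSO and 4-PBA against day 0, with 8, 2 and 8 members. The crossed pairing of day 0 and 4-PBA, added after seeing the data, gave 11429 genes and 8 members. With 2 libraries a group the spread is known poorly, and the day 0 values of Depp1, Trim63 and Fbxo40 rest on 14 to 54 counts.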

Other observations

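Genes of the hypoxia response, of which Bnip3 is a known member, had 18 of 23 tested genes (78.3%) called with DMSO against day 0. Of the 18, 7 were higher and 11 lower, and the list median log2 fold change was -0.28. Of all tested genes 66.3% were called, 33.8% higher and 32.6% lower. Ldha, the lactate-forming dehydrogenase, fell by 0.91 (SE 0.0333), while Bhlhe40, a transcriptional repressor, rose by 1.83 (SE 0.0320) and Egln3, an oxygen-sensing prolyl hydroxylase, by 1.26 (SE 0.0496). With 4-PBA against DMSO 7 of the 23 were called, all lower, with a list median of -0.02, where 2.78% of all tested genes were called lower. Bhlhe40 had 308 and 300 CPM against 356 and 354 (log2 -0.22, SE 0.0304, edgeR adjusted p = 1.02e-05). Hk2, the muscle hexokinase gene, had 79.1 and 83.8 CPM against 98.3 and 98.9 (log2 -0.28, SE 0.0379, edgeR adjusted p = 1.04e-05). Egln3 was at 53.2 and 52.8 CPM against 63.6 and 62.7 (log2 -0.25, SE 0.0467, edgeR adjusted p = 5.86e-04). The count was 4 when either 4-PBA replicate was left out, and these 3 genes were called whichever library was left out. Bnip3 itself differed by 0.03 (SE 0.0508).

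Glucocorticoids are known inducers of Trim63 and Fbxo32 in muscle. Genes that respond to them had 14 of 16 tested genes (87.5%) called with DMSO against day 0, 7 in each direction, with a median of 0.12. Of all tested genes 66.3% were called, 33.8% higher and 32.6% lower. Mt2, a metallothionein, fell by 2.79 (SE 0.0853), Angptl4, a secreted lipase inhibitor, fell by 1.24 (SE 0.0660) and Per1, a clock gene, rose by 0.92 (SE 0.0553). With 4-PBA 3 of the 16 (18.8%) were called against DMSO, where 4.9% of all tested genes were, with a list median of 0.04. Per1 had 39.4 and 37.4 CPM against 47.7 and 47.1 (log2 -0.30, SE 0.0531, edgeR adjusted p = 3.32e-04). Mt2 had 9.41 and 8.54 CPM against 5.50 and 6.92 (log2 0.52, SE 0.0951, edgeR adjusted p = 5.71e-04). Ddit4, an mTORC1 inhibitor that also stands in the FoxO target and hypoxia lists, was lower (log2 -0.22, SE 0.0591, edgeR adjusted p = 0.0243), a call lost without DMSO replicate 1 or either 4-PBA replicate. The count of this list was 5 without 4-PBA replicate 1 and 6 without DMSO replicate 2.

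The pattern over the 6 libraries was compared between genes as a Euclidean distance between centred profiles of log2(CPM + 0.5), among genes with a mean of at least 5 CPM. Nearest to Depp1 were Tspan32 (distance 0.497), Mss51 (0.4995) and Plekha7 (0.524), of 10681 candidates. Mss51, a muscle gene whose product is linked to mitochondria, had mean levels of 5.76, 35.3 and 25.9 CPM at day 0, with DMSO and with 4-PBA. Nearest to Trim63 were Alpk3 (0.258), Tekt5 (0.266) and Tmem182 (0.292), of 10680 candidates. Nearest to Fbxo32 were Tgfb3 (0.0746), Nupr1 (0.0802) and Rb1 (0.0878), and nearest to Bnip3 were Zfp426 (0.0401), Btbd10 (0.0522) and Selenon (0.0530). Among the members, Foxo1 and Foxo4 were closest (0.227), Trim63 and Fbxo40 lay at 0.537, and Trim63 and Fbxo30 were farthest apart (5.29). The points are 6 libraries in 3 groups that share their day 0 libraries, so the distances describe mainly the size of the change from day 0.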
